A study of Xenopus tropicalis with 12 samples.

Results

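Nuclear receptors are transcription factors that carry a zinc-finger DNA-binding domain and, in most members, a pocket that binds a small lipophilic molecule such as a retinoid, a thyroid hormone, a steroid or a bile acid. Without ligand, several of them hold corepressor complexes on their target genes, and ligand exchanges these for coactivators. Retinoic acid receptors act as pairs with retinoid X receptors, and retinoic acid signalling through them patterns the anteroposterior axis of the frog embryo. The nuclear receptor genes of the western clawed frog *Xenopus tropicalis* were taken from the study's catalog of transcription factors (TFs) as the entries whose protein domains included the nuclear receptor zinc finger or the hormone receptor domain. There were 48 such genes, of which 47 had a gene model in the tables analysed here, among 1197 TFs with a gene model and 26550 gene models in all. The gene without a model was nr3c2, the mineralocorticoid receptor, which was not analysed here. They fell into 6 retinoid receptor genes, 2 thyroid hormone receptor genes, 5 steroid receptor genes with a model, 8 genes for sensors of lipids, bile acids, xenobiotics and vitamin D, and 26 orphan receptor genes, a group that here holds all the others.

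The levels came from mRNA sequencing of untreated early gastrula embryos (stage 10-10.25) cut into 5 regions, and of whole sibling embryos of the same stage. The regions were the animal cap, which is enriched in future ectoderm, the dorsal, lateral and ventral marginal zones, enriched in future mesoderm, and the vegetal mass, enriched in future endoderm. Each of the 6 groups had 2 libraries, replicates 2 and 1, made from 2 different clutches, and each library held pooled explants or embryos, so that no value belongs to a single embryo. With dissected tissue, a higher level can come from more cells with the mRNA or from more mRNA per cell, and these cannot be told apart. The 12 libraries held between 14634582 and 29166548 expected counts (the deposited estimate of reads per gene model, summed). The median library of replicate 2 held 16574840 and that of replicate 1 held 27977760. The study ran the whole experiment once per clutch, so a difference between clutches cannot be told apart from one between experimental runs. Of the 8 region marker genes, each had its highest mean level in the region it marks. The animal marker foxi1, for example, averaged 115.74 TPM in animal caps and 1.27 TPM in vegetal masses, and the endoderm marker sox17a averaged 6.07 TPM in animal caps and 1352 TPM in vegetal masses. TPM is a level relative to all mRNA of the library and corrected for transcript length, so that different genes can be set side by side.

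At the onset of gastrulation nuclear receptor mRNAs covered a wide range of levels, and a few retinoid and xenobiotic receptor mRNAs were abundant. In whole embryos, 23 of the 47 genes (48.9%) had a mean of 1 TPM or more (18 in replicate 2 and 26 in replicate 1) and 9 (19.1%) had more than 10 TPM. Among the 1150 other TFs with a model, 66.3% and 41.6% passed these levels, and among all gene models 52.0% and 34.2%. The median was 0.87 TPM for the nuclear receptor genes, 4.89 TPM for the other TFs and 1.30 TPM for all gene models. Summed over each group, whole embryo means came to 311.14 TPM for the retinoid receptors, 102.86 TPM for the lipid and xenobiotic sensors, 84.08 TPM for the orphan receptors, 13.64 TPM for the steroid receptors and 0.51 TPM for the thyroid hormone receptors. The plot of levels by gene shows these groups on a log axis.

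**Figure D1:**
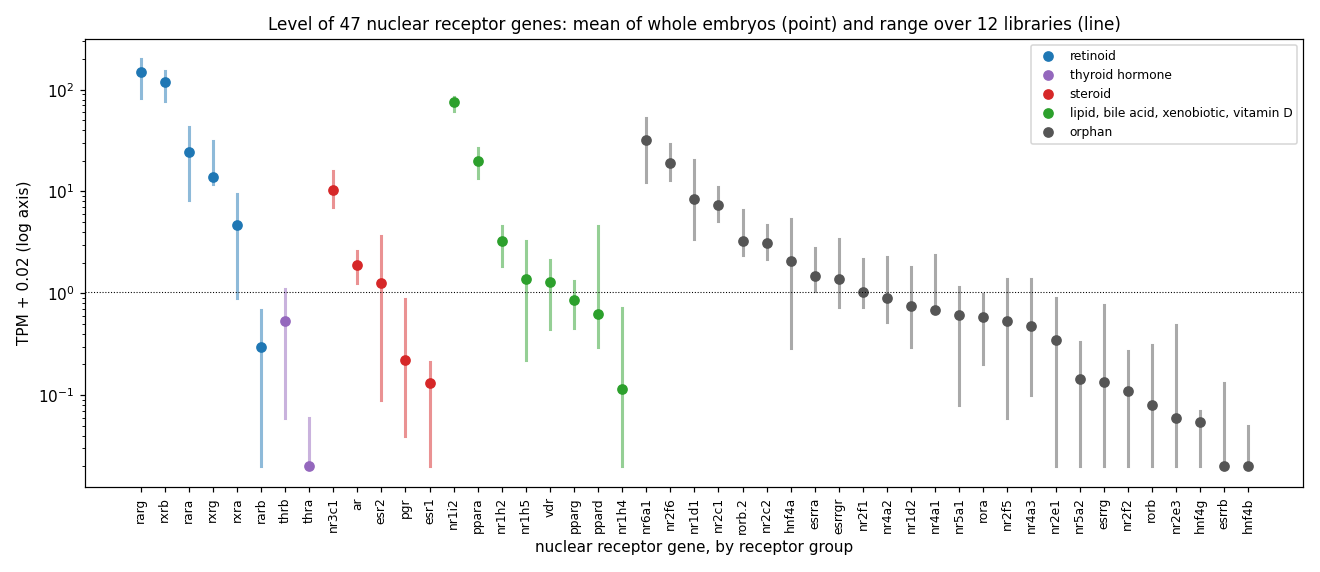
Level of the 47 nuclear receptor genes in TPM plus 0.02 (log axis), with genes along the horizontal axis by receptor group; points are means of the 2 whole embryo libraries and lines run over the lowest and highest of all 12 libraries. 9 genes lie above 10 TPM in whole embryos, led by rarg (150.24 TPM), rxrb (117.895 TPM) and nr1i2 (75.6 TPM), while the dotted line at 1 TPM has 24 genes under it.

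A filter on low counts (edgeR's filterByExpr) kept 33 of the 47 genes for testing, namely 5 of 6 retinoid, 1 of 2 thyroid hormone, 4 of 5 steroid, 6 of 8 sensor and 17 of 26 orphan receptor genes. The 14 genes that did not pass were rarb, thra, esr1, pparg, nr1h4 and the orphan receptor genes esrrb, esrrg, hnf4b, hnf4g, nr2e1, nr2e3, nr2f2, nr5a2 and rorb. Of these, 4 (thra, esrrb, hnf4b and hnf4g) had at most 1 expected count in any of the 12 libraries. With 3 counts taken as the limit of detection, their mRNA was not detectable at this depth. The bile acid receptor gene nr1h4 reached 0.70 TPM at most, rarb 0.66 TPM, and the estrogen receptor alpha gene esr1 0.19 TPM. The highest single-library level of a gene that did not pass was 1.30 TPM, for the fatty acid receptor gene pparg on 9 expected counts or fewer per library.

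Between regions, 1 of the 33 tested genes differed in edgeR's quasi-likelihood test over the 5 regions with Benjamini-Hochberg adjustment over all genes (adjusted p under 0.05), against 3.83% of all 15727 genes tested. This gene was nr6a1. Because the libraries of a replicate number came from the same clutch, each test was also run with the replicate number as a block, and 5 of 33 genes then passed (nr2f6, nr6a1, rara, rarg and rxrg), against 29.9% of all genes. The call of nr6a1 without the block was lost when any 1 of the 10 region libraries was left out. Single libraries were also left out of the fits with the block, a step added after seeing the data. Nr6a1, rara and rarg then remained called whichever library was missing, rxrg lost its call without 7 of the 10 libraries (adjusted p up to 0.0756) and nr2f6 without any but those of the vegetal mass (up to 0.212). Between animal caps and vegetal masses 1 gene passed without the block (nr6a1, higher in animal caps), against 8.04% of all genes (3.64% higher). With the block 9 passed, 4 higher and 5 lower in animal caps, against 40.6% of all genes (19.5% higher and 21.2% lower). Both shares of nuclear receptor genes were under those of all genes. The median ratio of highest to lowest regional mean TPM went the other way. It was 1.84 for the 33 genes and 1.59 for the 15473 tested genes with no mean at 0. Neither measure was matched for level. Each region group had 2 libraries, and the p-values rest on the spread between clutches without the block and on what is left of it with the block. The comparisons of animal caps with vegetal masses, of either of them with the other 4 regions and of marginal zones with the 2 poles use the same 10 libraries and are not independent of each other.

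Nr6a1, the orphan receptor also called germ cell nuclear factor, which in mouse represses the pluripotency gene Pou5f1, was concentrated in the animal cap. Replicate 2 had 40.8 TPM in animal caps, 15.2 in dorsal, 17.03 in lateral and 13.8 in ventral marginal zones, 12.4 in vegetal masses and 29.9 in whole embryos. Replicate 1 had 52.7 TPM in animal caps, 15.2 in dorsal, 18.5 in lateral and 20.1 in ventral marginal zones, 20.3 in vegetal masses and 34.2 in whole embryos. Both animal cap libraries lay above all 8 libraries of the other regions, which did not separate from each other, and the whole embryos lay between. Its level in animal caps was 3.16-fold that in vegetal masses, a log2 fold change of 1.66 ± 0.27 (SE, adjusted p = 0.0111, edgeR, and 0.000152 with the block). Set against the 4 other regions together, the log2 difference was 1.54 ± 0.19 (SE, adjusted p = 0.00752, edgeR). Nr6a1 was the single gene of the 33 to pass in that comparison, against 2.62% of all genes (1.06% higher). Without animal cap replicate 1, animal cap replicate 2 or vegetal mass replicate 2, the adjusted p against vegetal masses in edgeR became 0.0636, 0.0595 and 0.0722. The log2 fold change lay between 1.44 and 1.92 over all single libraries left out. Without animal cap replicate 1 or 2, the adjusted p against the other 4 regions became 0.0857 and 0.0768. With the block, marginal zones were lower in nr6a1 than the average of the 2 poles (log2 difference -0.67 ± 0.12, SE, adjusted p = 0.0084 in edgeR, and 0.216 without the block). So were vegetal masses against the average of the other 4 regions (-0.53 ± 0.16, SE, adjusted p = 0.0221 in edgeR, and 0.184 without it). Both of these averages include the animal cap, and the vegetal mean of 16.3 TPM lay within the 15.2 to 17.8 TPM of the marginal zone means. With the block, the calls against vegetal masses, against the other 4 regions and of marginal zones against the poles stood whichever library was left out (adjusted p up to 0.00149, 0.00202 and 0.0371). The lower level in vegetal masses lost its call without ventral marginal zone replicate 1 or vegetal mass replicate 2 (up to 0.187), with log2 values between -0.81 and -0.31 over the libraries left out.

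The retinoid receptor mRNAs were dominated by rarg and rxrb, which encode retinoic acid receptor gamma and retinoid X receptor beta. Rarg made up 86.9% to 94.0% of the summed TPM of the 3 retinoic acid receptor genes in the libraries of replicate 2 and 70.9% to 85.4% in those of replicate 1. In replicate 2, rarg stood at 199 TPM in dorsal, 151 in lateral and 109 in ventral marginal zones, 167 in animal caps, 82.2 in vegetal masses and 151 in whole embryos. Replicate 1 had 159 TPM in dorsal, 128 in lateral and 104 in ventral marginal zones, 151 in animal caps, 88.7 in vegetal masses and 150.0 in whole embryos. In both clutches the dorsal marginal zone was highest and the vegetal mass lowest, with the lateral marginal zone above the ventral. Dorsal marginal zones were higher than ventral ones with the block (log2 fold change 0.81 ± 0.13, SE, adjusted p = 0.0149, edgeR), the single one of the 33 genes to pass, against 1.46% of all genes (1.02% higher). Without the block the log2 fold change was 0.84 ± 0.30 and missed the threshold (adjusted p = 1.0, edgeR). None of the 33 genes passed there, against 0.0445% of all genes, while 1 had an unadjusted p under 0.05 and DESeq2 called none. Animal caps had 2.03-fold the level of vegetal masses with the block (log2 fold change 1.02 ± 0.13, SE, adjusted p = 0.000236, edgeR), and 1.04 ± 0.30 without it (adjusted p = 0.0844). Animal caps also exceeded the mean of the other 4 regions with the block (0.42 ± 0.10, SE, adjusted p = 0.0195, edgeR, and 0.713 without it). In that comparison 4 of the 33 genes passed (nr2f5, nr2f6, nr6a1 and rarg, each higher), against 15% of all genes (7.69% higher). With the block, the difference of rarg between animal caps and vegetal masses stood whichever library was left out (adjusted p up to 0.00243). The dorsal to ventral difference lost its call without dorsal replicate 2 or either ventral library (up to 0.270), and that of animal caps from the other 4 regions without either animal cap library, lateral replicate 1 or ventral replicate 2 (up to 0.184).

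Rara, encoding retinoic acid receptor alpha, was lower at both poles of the embryo than in the marginal zones. Replicate 2 had 17.7 TPM in dorsal, 18.5 in lateral and 16.5 in ventral marginal zones, 10.6 in animal caps, 8.24 in vegetal masses and 15.2 in whole embryos. Replicate 1 had 33.3 TPM in dorsal, 38.5 in lateral and 42.5 in ventral marginal zones, 25.2 in animal caps, 23.99 in vegetal masses and 33.1 in whole embryos. Within each clutch all 3 marginal zones were above both poles, while the 2 clutches did not overlap. Marginal zones were 1.75-fold above the 2 poles with the block (log2 difference 0.80 ± 0.12, SE, adjusted p = 0.00263, edgeR), and missed the threshold without it (0.77 ± 0.40, adjusted p = 0.855). With the block 3 of 33 genes passed in this comparison (rara higher, nr2f6 and nr6a1 lower in marginal zones), against 10.9% of all genes (6.1% higher and 4.75% lower). Without it none did in edgeR, against 0.591% of all genes, while 2 had an unadjusted p under 0.05 and DESeq2 called 1 (nr6a1). Against the other 4 regions, rara passed with the block for vegetal masses (lower) but not for animal caps. The remaining retinoic acid receptor gene, rarb, was at 0.27 TPM or less in every library of replicate 2 and at 0.66 TPM or less in replicate 1. The call of rara in marginal zones stood in the fits with the block whichever library was left out (adjusted p up to 0.0149), as did nr6a1, whereas nr2f6 lost its own without 7 of the 10 libraries (up to 0.125).

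Among the retinoid X receptors, the obligate partners of retinoic acid, thyroid hormone and vitamin D receptors, rxrb held 81.9% to 91.4% of the summed TPM in replicate 2 and 74.2% to 82.0% in replicate 1. In replicate 2, rxrb was at 144 TPM in animal caps, 133 in dorsal, 152 in lateral and 148 in ventral marginal zones, 145 in vegetal masses and 149.7 in whole embryos. Replicate 1 had 85.2 TPM in animal caps, 78.4 in dorsal, 86.1 in lateral and 81.8 in ventral marginal zones, 77.2 in vegetal masses and 86.1 in whole embryos. It was even across the embryo in both clutches and higher in every library of replicate 2 than in any of replicate 1. Rxrg had a vegetal maximum, with replicate 2 giving 31.1 TPM in vegetal masses, 12.1 in animal caps, 12.2 in dorsal, 16.6 in lateral and 19.7 in ventral marginal zones, and 15.1 in whole embryos. Replicate 1 had 17.4 TPM in vegetal masses, 11.99 in animal caps, 11.9 in dorsal, 13.9 in lateral and 13.5 in ventral marginal zones, and 12.8 in whole embryos. In each clutch the vegetal mass was above every other library, and animal caps and dorsal marginal zones were nearly equal. The vegetal level was 1.56-fold the mean of the other 4 regions with the block (log2 difference 0.65 ± 0.14, SE, adjusted p = 0.00506, edgeR) and missed the threshold without it (0.71 ± 0.33, adjusted p = 0.251). Animal caps were lower than vegetal masses by the same measure (log2 fold change -0.82 ± 0.19, SE, adjusted p = 0.00721 in edgeR with the block, and 0.292 without it). Rxra had 1.43 TPM in animal caps, 1.9 in dorsal, 0.87 in lateral and 1.68 in ventral marginal zones, 0.96 in vegetal masses and 1.44 in whole embryos in replicate 2. Replicate 1 had 7.88 TPM in animal caps, 6.4 in dorsal, 5.05 in lateral and 5.55 in ventral marginal zones, 9.41 in vegetal masses and 7.84 in whole embryos. Rxra made up 0.514% to 1.29% of the retinoid X receptor TPM in replicate 2 and 4.81% to 9.05% in replicate 1, and no region comparison of it passed. With the block, the vegetal call of rxrg was lost without vegetal mass replicate 2 (adjusted p = 0.1, edgeR) and that between the poles without animal cap replicate 2 (adjusted p = 0.0896, edgeR). The log2 values ran between 0.35 and 0.91 and between -1.09 and -0.53, each without 1 of the 2 vegetal libraries.

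**Figure D2:**
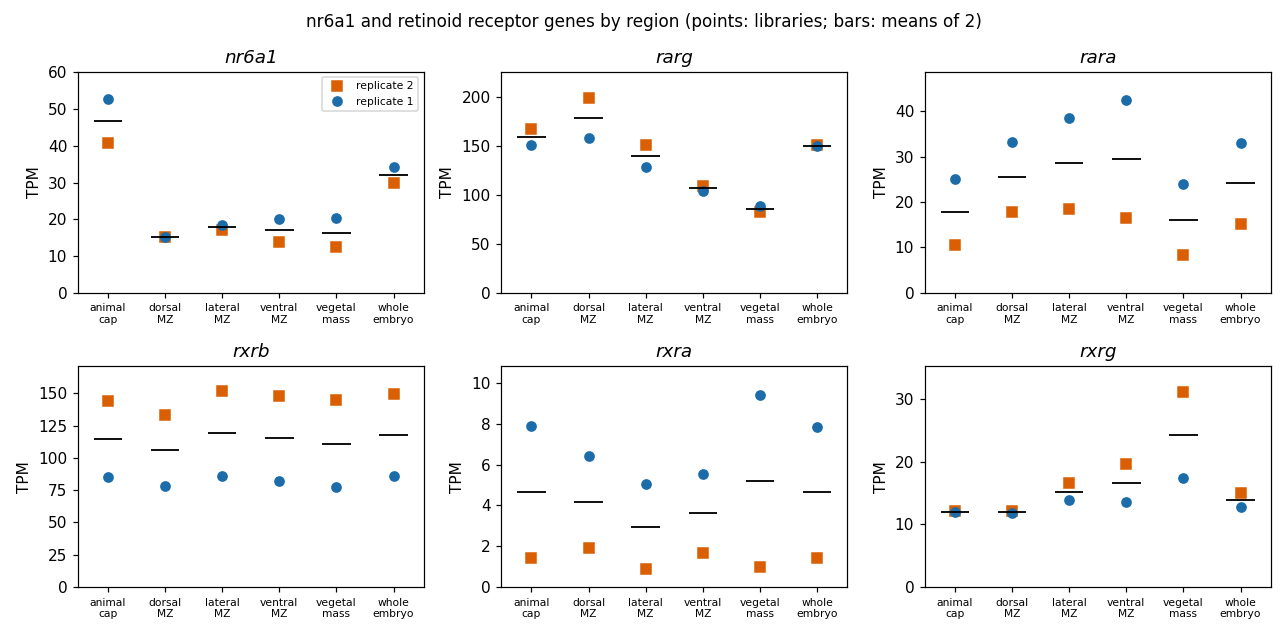
Level in TPM (vertical axes, from 0) of nr6a1 and the 5 retinoid receptor genes that were tested, in the 5 regions and whole embryos along the horizontal axis; squares are replicate 2, circles replicate 1 and bars the means of the 2. Nr6a1 stands out in animal caps (mean 46.7 TPM, against 15.2 to 17.8 TPM in the other regions), rarg is highest in dorsal marginal zones, rara is lower at both poles than in marginal zones, and rxrb and rxra differ between clutches rather than regions.

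Of the thyroid hormone receptor genes, thra had at most 1 count per library and thrb between 0.04 and 0.24 TPM in replicate 2, against 0.64 to 1.08 TPM in replicate 1. No region comparison of thrb passed. In the RefSeq annotation of a later assembly (UCB_Xtro_10.0), thra lies next to nr1d1, and thrb next to nr1d2, with no gene between either pair. The libraries do not keep the strand of the mRNA, so reads from overlapping ends of such neighbours could not be told apart.

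The steroid receptor mRNAs were led by nr3c1, the glucocorticoid receptor gene. In replicate 2, nr3c1 measured 7.22 TPM in animal caps, 7.5 in dorsal, 7.08 in lateral and 8.69 in ventral marginal zones, 10.8 in vegetal masses and 6.99 in whole embryos. Replicate 1 had 12.5 TPM in animal caps, 11.99 in dorsal, 14.9 in lateral and 13.4 in ventral marginal zones, 15.8 in vegetal masses and 13.4 in whole embryos. The 2 clutches did not overlap. The androgen receptor gene ar was low and even, with 1.25 TPM in animal caps, 2.14 in dorsal, 1.78 in lateral and 2.14 in ventral marginal zones, 1.55 in vegetal masses and 1.55 in whole embryos in replicate 2. Replicate 1 had 2.01 TPM in animal caps, 1.61 in dorsal, 1.24 in lateral and 1.52 in ventral marginal zones, 2.6 in vegetal masses and 2.17 in whole embryos. The estrogen receptor beta gene esr2 was near the limit of detection in replicate 2, with 0.07 TPM in animal caps, 0.07 in dorsal, 0.19 in lateral and 0.3 in ventral marginal zones, 0.52 in vegetal masses and 0.18 in whole embryos. Replicate 1 had 3.41 TPM in animal caps, 2.37 in dorsal, 2.87 in lateral and 2.9 in ventral marginal zones, 3.66 in vegetal masses and 2.33 in whole embryos. The progesterone receptor gene pgr went the other way, at 0.35 to 0.86 TPM in replicate 2 and 0.02 to 0.13 TPM in replicate 1. None of the 4 tested steroid receptor genes passed in any comparison of regions, with or without the block.

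Among the sensors, nr1i2 was the most abundant. It encodes the pregnane X receptor, which in *Xenopus* was described as a benzoate receptor. Its levels in replicate 2 were 71.4 TPM in animal caps, 61.2 in dorsal, 64.1 in lateral and 75.5 in ventral marginal zones, 84.3 in vegetal masses and 75.04 in whole embryos. Replicate 1 had 74.6 TPM in animal caps, 78.8 in dorsal, 69.8 in lateral and 77.6 in ventral marginal zones, 83.7 in vegetal masses and 76.1 in whole embryos. The 12 libraries spanned 61.2 to 84.3 TPM. Both vegetal libraries lay above all other region libraries (78.8 TPM at most), but nr1i2 passed in no comparison of regions, with or without the block. The log2 fold change of animal caps over vegetal masses was -0.07 ± 0.19 (SE, 95% interval -0.44 to 0.30). Ppara, a receptor for fatty acids, was at 26.8 TPM in animal caps, 17.7 in dorsal, 20.6 in lateral and 22.7 in ventral marginal zones, 16.5 in vegetal masses and 21.02 in whole embryos in replicate 2. Replicate 1 had 20.9 TPM in animal caps, 15.8 in dorsal, 13.5 in lateral and 17.7 in ventral marginal zones, 20.4 in vegetal masses and 18.8 in whole embryos. Ppara made up 76.9% to 93.4% of the summed TPM of the 3 ppar genes in replicate 2 and 91.2% to 96.6% in replicate 1. Its animal caps were highest in both clutches, but no comparison of regions passed.

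Vdr, the vitamin D receptor gene, and ppard, another fatty acid receptor gene, had their highest levels in the vegetal mass. For vdr, replicate 2 had 1.68 TPM in vegetal masses, 0.43 in animal caps, 1.09 in dorsal, 0.73 in lateral and 0.48 in ventral marginal zones, and 0.96 in whole embryos. Replicate 1 had 2.1 TPM in vegetal masses, 1.03 in animal caps, 0.89 in dorsal, 0.84 in lateral and 0.69 in ventral marginal zones, and 1.58 in whole embryos. Both vegetal libraries were above every other region library, and the difference from the other 4 regions was a log2 value of 1.18 ± 0.36 (SE, adjusted p = 0.0257, edgeR with the block, and 0.121 without it), on 4 to 34 expected counts per region library. Between animal caps and vegetal masses the log2 fold change of vdr was -1.20 ± 0.50 and missed the threshold (SE, adjusted p = 0.0855 in edgeR with the block). For ppard, replicate 2 had 4.52 TPM in vegetal masses, 1.7 in animal caps, 1.88 in dorsal, 1.66 in lateral and 2.08 in ventral marginal zones, and 0.8 in whole embryos. Replicate 1 had 0.67 TPM in vegetal masses, 0.28 in animal caps, 0.34 in dorsal, 0.33 in lateral and 0.5 in ventral marginal zones, and 0.4 in whole embryos. The vegetal level was highest in each clutch, but all libraries of replicate 2 exceeded all of replicate 1. Ppard was higher in vegetal masses than in the other 4 regions (log2 difference 1.02 ± 0.27, SE, adjusted p = 0.0135, edgeR with the block, and 0.662 without it). It was lower in animal caps than in vegetal masses (-1.20 ± 0.38, SE, adjusted p = 0.03 in edgeR with the block, and 0.756 without it). Without vegetal mass replicate 2 and without the block, the sign of both differences turned (-1.0 and 0.86). With the block the signs held whichever library was left out, but the vegetal call of ppard was lost without vegetal mass replicate 2 (adjusted p = 0.299, edgeR). That against animal caps was lost without either animal cap library, lateral or ventral replicate 2 or vegetal mass replicate 2 (up to 0.260). The call of vdr was lost without either vegetal, lateral or ventral library or dorsal replicate 1 (up to 0.163).

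The oxysterol receptor gene nr1h2 was even, with 2.86 TPM in animal caps, 1.84 in dorsal, 2.71 in lateral and 2.63 in ventral marginal zones, 3.37 in vegetal masses and 2.42 in whole embryos in replicate 2. Replicate 1 had 4.33 TPM in animal caps, 4.57 in dorsal, 3.58 in lateral and 4.26 in ventral marginal zones, 4.22 in vegetal masses and 4.06 in whole embryos. The related gene nr1h5 (farnesoid X receptor beta) had 0.51 TPM in animal caps, 0.29 in dorsal, 0.82 in lateral and 0.2 in ventral marginal zones, 1.26 in vegetal masses and 0.5 in whole embryos in replicate 2. Replicate 1 had 1.87 TPM in animal caps, 2.68 in dorsal, 3.06 in lateral and 2.2 in ventral marginal zones, 3.22 in vegetal masses and 2.23 in whole embryos. Both genes differed by clutch with no overlap, and neither passed between regions.

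Vegetal masses against the other 4 regions gave the most calls among region comparisons once clutch was in the model, for these genes as for all genes. Of the 33 genes 11 passed with the block, 6 higher (nr2c1, nr4a1, nr4a2, ppard, rxrg and vdr) and 5 lower (nr1d1, nr2f5, nr6a1, rara and rarg) in vegetal masses, against 42.6% of all genes (22.8% higher and 19.9% lower). By group these were 3 of 5 retinoid, 0 of 1 thyroid hormone, 0 of 4 steroid, 2 of 6 sensor and 6 of 17 orphan receptor genes. On log2(TPM + 0.1), the vegetal difference of rara was -0.90 in replicate 2 and -0.51 in replicate 1. That of rarg was -0.90 and -0.59. Leaving out single libraries gave 5 to 12 calls with the block, the fewest without vegetal mass replicate 2, and rara and rarg passed in every such fit (adjusted p up to 0.0101 and 0.000757). Without the block none passed in edgeR, against 9.53% of all genes, while 7 had an unadjusted p under 0.05 and DESeq2 called 2 (nr2f5 and rarg). The median log2 difference of the 33 genes was 0.29 with the block and 0.36 without it, and 0.02 over all genes without it. By regional mean TPM, 23 of the 33 genes were highest in the vegetal mass, as were 48.0% of all tested genes, and 5 in the animal cap, as were 22.6%. The same region was highest in both clutches for 23 of the 33, of which 15 were highest in the vegetal mass. How many of all tested genes agreed between clutches in this way was not computed. On TPM the median gene was itself lower in animal caps than in vegetal masses (log2 difference -0.12, against -0.03 after the normalization used in the tests).

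**Figure D3:**
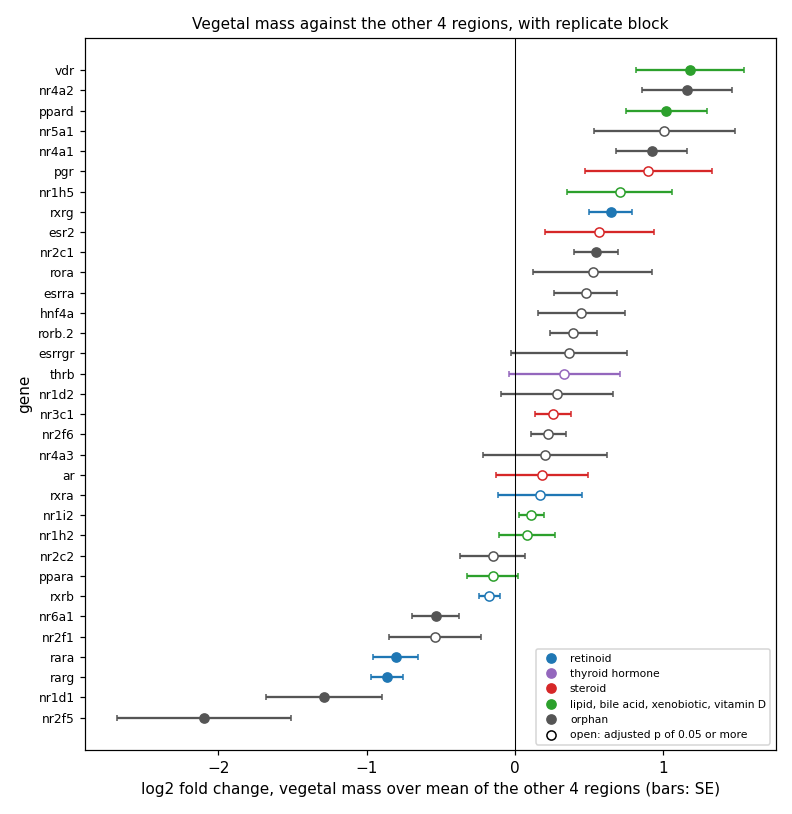
Log2 fold change of vegetal masses over the mean of the other 4 regions (horizontal axis) for the 33 tested nuclear receptor genes, from the edgeR fit with the replicate block; bars are 1 SE, colours are receptor groups and filled points have an adjusted p under 0.05. Filled points run between 0.55 (nr2c1) and 1.18 (vdr) on the vegetal side and between -0.53 (nr6a1) and -2.10 (nr2f5) on the other, and the retinoid receptors lie on both sides.

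Among the immediate-early orphan receptors of the nr4a family, which need no ligand, nr4a1 and nr4a2 were highest in vegetal masses in both clutches, and nr4a3 in replicate 1 but not in replicate 2. For nr4a1, the frog Nur77 gene, the levels in replicate 2 were 2.38 TPM in vegetal masses, 1.29 in animal caps, 0.65 in dorsal, 1.18 in lateral and 1.39 in ventral marginal zones, and 0.63 in whole embryos. Replicate 1 had 1.88 TPM in vegetal masses, 0.77 in animal caps, 0.86 in dorsal, 1.0 in lateral and 1.19 in ventral marginal zones, and 0.7 in whole embryos. The vegetal mass was above every other library of its clutch, and whole embryos lay below every dissected region of their clutch. Vegetal masses were 1.90-fold above the other 4 regions (log2 difference 0.92 ± 0.24, SE, adjusted p = 0.012, edgeR with the block, and 0.164 without it). Animal caps were lower than vegetal masses (-0.95 ± 0.33, SE, adjusted p = 0.0439, edgeR with the block, and 0.346 without it). The mean of the dissected regions was above whole embryos by a log2 value of 0.84 ± 0.28, which missed the threshold (SE, adjusted p = 0.241, edgeR with the block, and 1.0 without it). Nr4a2, the Nurr1 gene, was at 1.52 TPM in vegetal masses, 0.7 in animal caps, 1.28 in dorsal, 0.57 in lateral and 0.74 in ventral marginal zones, and 0.6 in whole embryos in replicate 2. Replicate 1 had 2.26 TPM in vegetal masses, 0.5 in animal caps, 0.72 in dorsal, 0.84 in lateral and 1.07 in ventral marginal zones, and 1.14 in whole embryos. Vegetal masses were again above every other library of their clutch, with a log2 difference of 1.16 ± 0.30 from the other 4 regions (SE, adjusted p = 0.0123, edgeR with the block, and 0.111 without it). Animal caps were lower than vegetal masses (-1.56 ± 0.44, SE, adjusted p = 0.0176 in edgeR with the block, and 0.135 without it). The last member, nr4a3, reached 0.31 TPM at most in replicate 2 and 0.75 to 1.35 TPM in replicate 1, and did not pass between regions. The vegetal calls with the block were lost without either vegetal library for nr4a1 (adjusted p up to 0.0851) and without vegetal mass replicate 1 for nr4a2 (0.193). The calls against animal caps were lost without any but the dorsal libraries for nr4a1 (up to 0.278) and without animal cap or vegetal mass replicate 1 for nr4a2 (up to 0.146).

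Nr2c1, which encodes testicular receptor 2, was also vegetal. Replicate 2 had 9.3 TPM in vegetal masses, 6.26 in animal caps, 6.6 in dorsal, 5.76 in lateral and 6.35 in ventral marginal zones, and 6.24 in whole embryos. Replicate 1 had 11.1 TPM in vegetal masses, 6.34 in animal caps, 5.07 in dorsal, 7.79 in lateral and 7.16 in ventral marginal zones, and 8.48 in whole embryos. Both vegetal libraries were above the other 8 region libraries, by a log2 difference of 0.55 ± 0.15 (SE, adjusted p = 0.0148, edgeR with the block, and 0.181 without it). Animal caps were lower than vegetal masses (-0.56 ± 0.20, SE, adjusted p = 0.0476 in edgeR with the block, and 0.325 without it). Its paralog nr2c2 showed no such maximum, with 2.44 TPM in vegetal masses, 2.2 in animal caps, 2.73 in dorsal, 2.76 in lateral and 2.41 in ventral marginal zones, and 2.15 in whole embryos in replicate 2. Replicate 1 had 3.73 TPM in vegetal masses, 4.29 in animal caps, 2.52 in dorsal, 4.66 in lateral and 3.85 in ventral marginal zones, and 4.03 in whole embryos. The lateral marginal zone was its highest region in both clutches, and no comparison of regions passed. The vegetal call of nr2c1 was lost without vegetal mass replicate 1 (adjusted p = 0.116, edgeR with the block) and that against animal caps without 7 of the 10 libraries (up to 0.185).

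The COUP-TF genes, orphan receptors that mostly repress, did not follow each other. Nr2f5, a COUP-TF gene known from fish and frogs, was low and animal, with 1.36 TPM in animal caps, 0.34 in dorsal, 0.93 in lateral and 0.7 in ventral marginal zones, 0.04 in vegetal masses and 0.52 in whole embryos in replicate 2. Replicate 1 had 0.76 TPM in animal caps, 0.29 in dorsal, 0.47 in lateral and 0.57 in ventral marginal zones, 0.22 in vegetal masses and 0.52 in whole embryos. Animal caps were highest and vegetal masses lowest in each clutch, on 28 and 26 expected counts in animal caps and 1 and 8 in vegetal masses of replicates 2 and 1. The fitted log2 fold change was 2.84 ± 0.66 (SE, adjusted p = 0.00715, edgeR with the block), and 3.10 ± 0.85 without it (adjusted p = 0.0723). Vegetal masses were lower than the other 4 regions (-2.10 ± 0.59, SE, adjusted p = 0.0164, edgeR with the block, and 0.104 without it). Animal caps were higher than the other 4 (1.45 ± 0.43, SE, adjusted p = 0.0493 in edgeR with the block, and 0.352 without it). Nr2f6, a related repressor, was at 22.2 TPM in animal caps, 12.9 in dorsal, 15.5 in lateral and 16.4 in ventral marginal zones, 17.9 in vegetal masses and 16.7 in whole embryos in replicate 2. Replicate 1 had 25.5 TPM in animal caps, 17.3 in dorsal, 19.4 in lateral and 20.1 in ventral marginal zones, 29.6 in vegetal masses and 21.1 in whole embryos. Both poles were above all 3 marginal zones in each clutch, with marginal zones lower by a log2 value of -0.44 ± 0.10 (SE, adjusted p = 0.0209, edgeR with the block, and 0.433 without it). Animal caps were above the average of the other 4 regions (0.43 ± 0.12, SE, adjusted p = 0.0379, edgeR with the block, and 0.466 without it), but not above vegetal masses, which were higher in replicate 1 and had nearly the same mean (23.9 TPM in animal caps and 23.7 TPM in vegetal masses). Nr2f1 was at 1.45 TPM in animal caps, 2.16 in dorsal, 1.13 in lateral and 1.18 in ventral marginal zones, 0.71 in vegetal masses and 0.97 in whole embryos in replicate 2. Replicate 1 had 0.76 TPM in animal caps, 1.26 in dorsal, 1.07 in lateral and 0.8 in ventral marginal zones, 0.97 in vegetal masses and 1.06 in whole embryos. It was highest in dorsal marginal zones of both clutches, and its log2 fold change of 0.84 ± 0.37 over ventral marginal zones missed the threshold (SE, adjusted p = 0.507, edgeR with the block). The last COUP-TF gene, nr2f2, did not exceed 0.25 TPM. With the block, nr2f5 passed between animal caps and vegetal masses whichever library was left out (adjusted p up to 0.0397), but the log2 fold change ran between 1.95 without vegetal mass replicate 2 and 4.93 without vegetal mass replicate 1. Its vegetal difference ran between -1.22 and -4.20 without the same libraries, and the call was lost without vegetal mass replicate 2 (0.148). Against the other 4 regions, the animal cap calls of nr2f5 and nr2f6 were lost without any library but those of the vegetal mass (up to 0.403 and 0.419), and the marginal zone call of nr2f6 without any but animal cap replicate 1 and the vegetal libraries (up to 0.125).

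Nr1d1, which encodes the heme-binding clock repressor Rev-erb alpha, was lowest in vegetal masses. Replicate 2 had 20.6 TPM in animal caps, 15.3 in dorsal, 13.95 in lateral and 12.7 in ventral marginal zones, 3.37 in vegetal masses and 12.5 in whole embryos. Replicate 1 had 8.12 TPM in animal caps, 5.24 in dorsal, 5.51 in lateral and 6.7 in ventral marginal zones, 4.69 in vegetal masses and 4.31 in whole embryos. The animal cap was highest in each clutch, and the gap between the poles was wider in replicate 2. Animal caps were higher than vegetal masses by a log2 fold change of 1.69 ± 0.46 (SE, adjusted p = 0.0223, edgeR with the block, and 0.237 without it). Vegetal masses were lower than the other 4 regions (-1.29 ± 0.39, SE, adjusted p = 0.0322 in edgeR with the block, and 0.251 without it). Its relative nr1d2 was scarce, with 0.64 TPM in animal caps, 0.47 in dorsal, 0.48 in lateral and 0.35 in ventral marginal zones, 0.28 in vegetal masses and 0.32 in whole embryos in replicate 2. Replicate 1 had 0.7 TPM in animal caps, 0.96 in dorsal, 1.24 in lateral and 0.85 in ventral marginal zones, 1.78 in vegetal masses and 1.13 in whole embryos. It passed in no comparison of regions. The receptor gene rorb.2, of the retinoid-related orphan family that competes with Rev-erb at shared sites in mammals, had 4.24 TPM in animal caps, 3.47 in dorsal, 4.67 in lateral and 5.41 in ventral marginal zones, 6.62 in vegetal masses and 3.52 in whole embryos in replicate 2. Replicate 1 had 3.35 TPM in animal caps, 2.34 in dorsal, 3.72 in lateral and 4.07 in ventral marginal zones, 4.5 in vegetal masses and 2.96 in whole embryos. Vegetal masses were highest and dorsal marginal zones lowest in both clutches, without passing the test. Rora stayed between 0.18 and 0.96 TPM. With the block, the call of nr1d1 between the poles was lost without either animal cap library (adjusted p up to 0.110), and the vegetal call without animal cap, lateral, ventral or vegetal mass replicate 2 or ventral replicate 1 (up to 0.0647). The log2 values were 0.93 and -0.53 without vegetal mass replicate 2, and 2.74 and -2.35 without vegetal mass replicate 1.

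**Figure D4:**
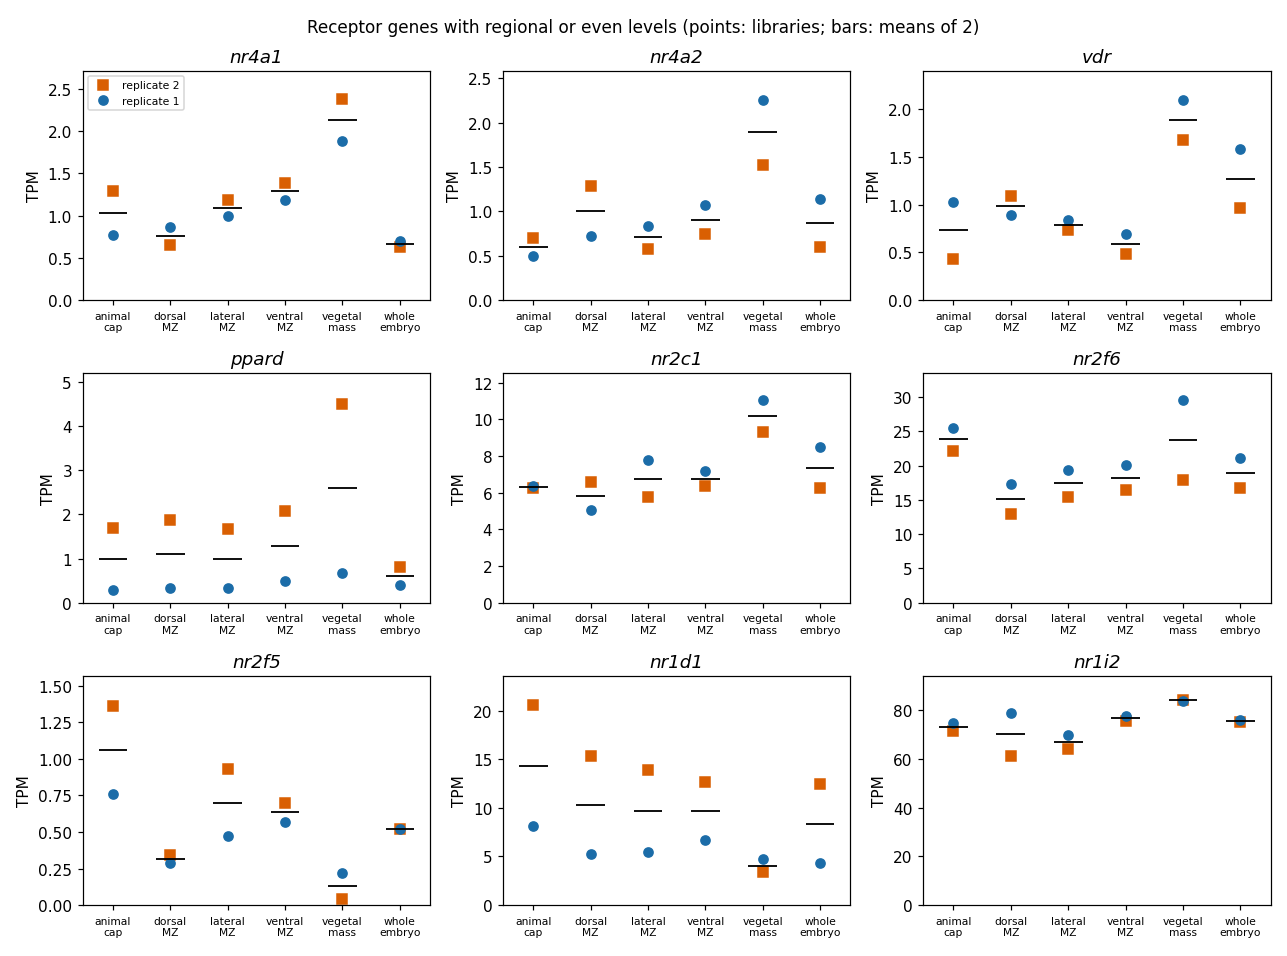
Level in TPM (vertical axes, from 0) of 9 receptor genes outside the retinoid group in the 5 regions and whole embryos along the horizontal axis; squares are replicate 2, circles replicate 1 and bars the means of the 2. Nr4a1, nr4a2, vdr, ppard and nr2c1 peak in vegetal masses, nr2f5 and nr1d1 in animal caps, nr2f6 is lowest in marginal zones, and nr1i2 stays between 61.2 and 84.3 TPM.

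The remaining orphan receptor genes at 1 TPM or more were the estrogen-related receptor genes esrra and esrrgr and the endodermal and liver regulator gene hnf4a. Esrra had 1.66 TPM in animal caps, 1.35 in dorsal, 1.39 in lateral and 1.6 in ventral marginal zones, 2.75 in vegetal masses and 1.86 in whole embryos in replicate 2. Replicate 1 had 1.24 TPM in animal caps, 1.14 in dorsal, 1.33 in lateral and 1.24 in ventral marginal zones, 1.53 in vegetal masses and 1.04 in whole embryos. All 12 libraries lay between 1.04 and 2.75 TPM. Esrrgr had 1.5 TPM in animal caps, 2.34 in dorsal, 1.89 in lateral and 3.42 in ventral marginal zones, 3.42 in vegetal masses and 1.98 in whole embryos in replicate 2. Replicate 1 had 1.8 TPM in animal caps, 1.59 in dorsal, 0.76 in lateral and 0.81 in ventral marginal zones, 1.6 in vegetal masses and 0.72 in whole embryos. Its highest region differed between the clutches. Hnf4a had 0.39 TPM in animal caps, 0.5 in dorsal, 0.89 in lateral and 0.97 in ventral marginal zones, 1.11 in vegetal masses and 0.27 in whole embryos in replicate 2. Replicate 1 had 4.6 TPM in animal caps, 3.04 in dorsal, 4.03 in lateral and 3.39 in ventral marginal zones, 5.32 in vegetal masses and 3.8 in whole embryos. The vegetal mass was highest in both clutches, but the clutches were further apart than the regions. None of the 3 passed between regions, and nor did nr5a1 (steroidogenic factor 1), which stayed between 0.06 and 1.12 TPM.

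More of these genes passed between clutches than in any comparison of regions, as did more of all genes (65.9%, against 42.6% at most between regions). The clutch test set 6 libraries against 6, while each region had 2, so the counts of calls are not on an equal footing. Replicate 2 against replicate 1, tested over all 12 libraries with region in the model, gave 25 of the 33 genes past the threshold (13 higher and 12 lower in replicate 2), against 65.9% of all 15848 genes (31.9% higher and 34.0% lower). By group these were 5 of 5 retinoid, 1 of 1 thyroid hormone, 3 of 4 steroid, 5 of 6 sensor and 11 of 17 orphan receptor genes. The 8 genes that did not pass were ar, nr2c1, nr2f5, nr2f6, nr4a1, nr4a2, nr6a1 and vdr. The TPM of the 6 libraries of replicate 2 did not overlap those of replicate 1 for 13 of the 33 genes, against 33.9% of all genes tested. On the TPM scale 9 genes were higher and 14 lower in replicate 2, where the median of all genes was -0.22 on the log2 scale, against -0.03 after the normalization used in the test. Nr1i2 was then lower in replicate 2 and did not pass (limma on log2(TPM + 1), log2 fold change -0.10, adjusted p = 0.164). Rarg, ppara and nr2f1 also did not pass on that scale, while nr2f6 and nr6a1 did, both lower in replicate 2. Nr2f6 passed as well in edgeR with library sizes without TMM, where nr1i2 and nr2f1 did not. The calls of these genes between clutches thus depended on the normalization or the method. Each replicate number is 1 clutch and 1 run of the experiment, which cannot be told apart. These p-values therefore measure how steady the difference was over the 6 pairs of libraries, and not how far clutches differ in general. Of the 25 calls, 20 stood whichever single library was left out. Rora lost its call without 1 of the 12 libraries, nr1h2 without 4, nr1i2 and nr2f1 without 8 each and nr2c2 without 10. With region in the model, a group left with 1 library adds nothing to the comparison of clutches. The 12 omissions therefore come close to leaving out each of the 6 pairs, and are not 12 separate checks.

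The largest differences were in steroid receptor genes. Esr2 ranged between 0.07 and 0.52 TPM in replicate 2 (1 to 9 counts), against 2.33 to 3.66 TPM in replicate 1 (62 to 96 counts), a log2 fold change of -3.46 ± 0.29 (SE, adjusted p = 1.47e-06, edgeR). Pgr was higher in replicate 2 by a log2 value of 3.37 ± 0.36 (SE, adjusted p = 8.80e-06, edgeR), and it was higher in 6 of 6 groups. This value rests on 1 to 27 expected counts per library, with 0.02 to 0.13 TPM in replicate 1. The count filter did not require counts in both replicates, so a gene could pass it through 1 of them. Ppard was higher by 2.48 ± 0.27 (SE), also in 6 of 6 groups, and hnf4a, thrb and rxra were lower in replicate 2 in 6 of 6 groups, with log2 fold changes of -2.30 ± 0.26, -2.24 ± 0.29 and -2.08 ± 0.21 (SE). The abundant rxrb was 2.11-fold higher in replicate 2 (1.08 ± 0.05 on the log2 scale, SE, adjusted p = 1.69e-08, edgeR), and rara was lower by -0.94 ± 0.10 (SE, adjusted p = 7.63e-06, edgeR). The summed TPM of the 3 retinoid X receptor genes was 147.41 to 176.55 in replicate 2 and 96.6 to 106.76 in replicate 1. The other calls were nr4a3 (-1.92 ± 0.32), nr1h5 (-1.88 ± 0.27), nr5a1 (-1.67 ± 0.46), nr1d2 (-1.11 ± 0.29), nr3c1 (-0.52 ± 0.09), nr1h2 (-0.40 ± 0.13) and nr2c2 (-0.38 ± 0.15) lower, and nr1d1 (1.35 ± 0.25), esrrgr (1.28 ± 0.29), rora (1.01 ± 0.31), esrra (0.73 ± 0.16), rorb.2 (0.67 ± 0.12), rxrg (0.59 ± 0.10), nr2f1 (0.57 ± 0.22), ppara (0.49 ± 0.12), rarg (0.38 ± 0.07) and nr1i2 (0.16 ± 0.06) higher in replicate 2 (log2 fold change ± SE). The libraries of replicate 2 were also shallower. The lateral marginal zone libraries held 26335531 expected counts in replicate 2 and 27352329 in replicate 1. In this 1 pair, esr2 had 0.19 and 2.87 TPM, rxrb 152 and 86.1 TPM and rara 18.5 and 38.5 TPM in replicates 2 and 1. Whether depth contributed to any of the differences between clutches was not tested.

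**Figure D5:**
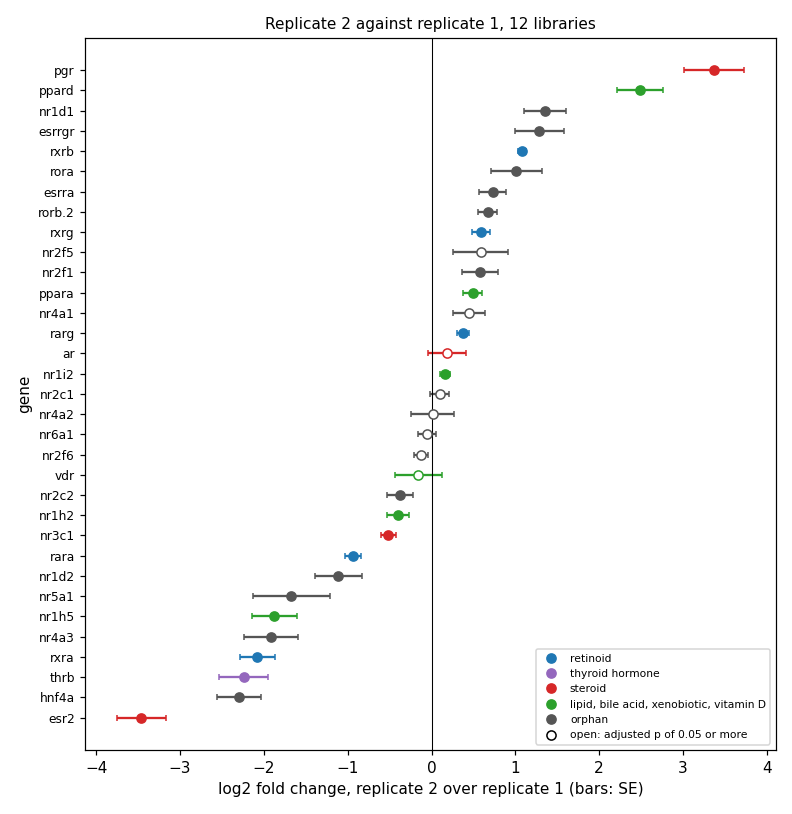
Log2 fold change of replicate 2 over replicate 1 (horizontal axis) for the 33 tested nuclear receptor genes over 12 libraries in 6 groups, from edgeR; bars are 1 SE, colours are receptor groups and filled points have an adjusted p under 0.05. Pgr (3.37) and ppard (2.48) lie farthest to the right and esr2 (-3.46) and hnf4a (-2.30) farthest to the left, and 8 points are open.

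Dissected regions against whole embryos gave no call among the 33 genes in edgeR without the block, where 2 had an unadjusted p under 0.05, DESeq2 called none and 0.0126% of all genes passed. Ppard averaged 1.40 TPM over the dissected regions and 0.60 TPM in whole embryos, a ratio of 2.33, without passing. On log2(TPM + 0.1) its difference was 1.35 in replicate 2 and 0.02 in replicate 1. With the block nr6a1 alone passed, against 1.77% of all genes (1.69% lower). The mean of the 5 dissected regions was lower than whole embryos by a log2 value of -0.64 ± 0.13 (SE, adjusted p = 0.0335, edgeR, and 0.652 without the block). This mean weighs the 5 regions equally, whatever part of the embryo each takes up. The call was lost without animal cap replicate 2, lateral replicate 1, ventral replicate 2 or either whole embryo library (adjusted p up to 0.644).

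Genes that act with these receptors were taken from lists of corepressors, TFs known to respond to retinoic acid, thyroid hormone response genes and clock partners. Of the 6 retinoic acid response TFs reported here, hoxd1, cdx4 and meis3 passed in at least 1 comparison of regions. Hoxb4 did not pass between regions, and hoxb1 and hoxd4 were too low to test. The share of all genes passing in at least 1 comparison was not computed. In vegetal masses against the other 4 regions alone, 9.53% of all genes passed without the block and 42.6% with it. Hoxd1 was lower there by a log2 difference of -3.49 ± 0.79 (SE, adjusted p = 0.0358, edgeR). Its call was lost without 6 of the 10 libraries, with log2 values between -3.74 and -3.07. With the block it was lost without vegetal mass replicate 1 only. The homeobox gene cdx4 was higher in marginal zones than at the 2 poles (log2 difference of 3.60 ± 0.40, SE, adjusted p = 0.0197, edgeR). The call was lost without 8 of the 10 libraries (adjusted p up to 0.118), and with the block it stood whichever was left out (up to 0.0129). Meis3, a Hox cofactor gene, averaged 74.5 TPM in animal caps and 13.9 TPM in vegetal masses, a log2 fold change of 2.55 ± 0.31 (SE, adjusted p = 0.00408, edgeR). The nuclear receptor corepressor gene ncor1 averaged 98.7 TPM in whole embryos and did not pass in any comparison of regions. It was lower in replicate 2 (-0.81 ± 0.08 on the log2 scale, SE, adjusted p = 7.40e-06, edgeR). The clock genes arntl and clock differed between clutches, at 0.68 ± 0.08 and -0.84 ± 0.06 (SE, adjusted p = 1.22e-05 and 2.44e-07, edgeR). Clock was also higher in vegetal masses than in the other 4 regions with the block (0.25 ± 0.08, SE, adjusted p = 0.0285, edgeR), a call lost without 8 of the 10 libraries (up to 0.131). Of the thyroid hormone response genes, klf9 did not pass between regions and thibz was too low to test, as was the clock partner gene npas2.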

How the data were processed

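The 12 polyA+ libraries, non-stranded and read as 50-bp single ends, were mapped by the authors to *X. tropicalis* v9.0 gene models with RSEM (version 1.2.12 in the submitters' processing notes). The expected counts deposited by the authors are RSEM's estimated reads per gene model, which divide reads among near-identical copies, so that levels of close paralogs are less certain. The TPM deposited by the authors are the same estimates per transcript length, scaled to a fixed total in each library. Reads of overlapping genes on opposite strands cannot be told apart. The authors' own EBSeq comparisons were not used.

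Expected counts were rounded and tested in edgeR 4.0.16 (filterByExpr, TMM, robust glmQLFit, glmQLFTest), with Benjamini-Hochberg adjustment over all genes tested and a threshold of 0.05. SE was the absolute log2 fold change divided by the square root of F. Region fits held the 10 region libraries, and the clutch and whole embryo fits all 12. By the study's methods the 2 replicates are different clutches. After subtraction of group means, libraries of the same number correlated between 0.66 and 0.83 in all 15 pairs of groups over 15764 genes (median 0.76), so the replicate block is given beside each result it changes. TPM was given in every library for members averaging 1 TPM or more in some group. Fold changes were given for members past the threshold or with group means at least 2-fold apart at 1 TPM or more, though not in every comparison. Members and lists were chosen with earlier results of these data known. Alternatives were the block, DESeq2 1.42.0, library sizes without TMM, no count filter, limma 3.58.1 on log2 TPM with a pseudocount of 1 or of 0.1, and leaving out each library, the last also with the block, which was added after seeing the data. R 4.3.3, Python 3.11.15, numpy 2.4.6, pandas 2.3.3 and matplotlib 3.10.9 were used. A limit of 3 counts was taken for detection, which covers counting error only. The retinoid metabolism genes aldh1a2, cyp26a1, rdh10, dhrs3, crabp2 and crabp1 and the clock gene arntl2 were not analysed here. Some genes of these lists are not reported here.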

Additional observations from a re-analysis of the deposited data

How the results depend on the processing

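Most calls between regions depended on the replicate block. With the replicate block the number of nuclear receptor genes past the threshold was 5 among any regions, 9 between animal caps and vegetal masses, 1 between dorsal and ventral marginal zones, 4 for animal caps and 11 for vegetal masses against the other 4 regions, 3 for marginal zones against the 2 poles and 1 for dissected regions against whole embryos, in place of 1, 1, 0, 1, 0, 0 and 0 without it. The 25 calls between clutches were 23 without the group term.

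DESeq2 gave 2 genes among any regions, 3 between animal caps and vegetal masses, 2 for vegetal masses against the other 4 regions and 1 for marginal zones against the poles. Limma gave 2 between animal caps and vegetal masses and 1 for vegetal masses with either pseudocount, and 0 among any regions on log2(TPM + 0.1). On log2(TPM + 1) the single gene among any regions was rarg, so that nr6a1 lost that call with both pseudocounts. When a library was left out, the remaining library of its group was assumed to vary like those of the other groups. Without the block this gave 0 among any regions, 0 to 1 between animal caps and vegetal masses and 0 to 1 for animal caps against the other 4 regions. With the block, a step added after seeing the data, it gave 3 to 8 among any regions, 4 to 9 between animal caps and vegetal masses, 0 to 1 between dorsal and ventral marginal zones, 1 to 7 for animal caps, 5 to 12 for vegetal masses, 2 to 6 for marginal zones and 0 to 1 for dissected regions. Leaving out 1 library also let more genes through the count filter. A whole replicate could not be left out of the comparison of clutches.

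The alternatives were also followed for the 54 fold changes past the threshold with or without the block, 25 of them between clutches. Of their 1266 values under the alternatives, 1262 kept their direction. These fold changes were chosen for passing, and the alternatives reuse the same libraries. A kept direction was therefore likely beforehand and is not separate support. Ppard turned without vegetal mass replicate 2 and without the block, to 0.86 between animal caps and vegetal masses and -1.0 for vegetal masses against the other 4 regions, where the values without single libraries ran between -3.25 and 0.86 and between -1.0 and 1.97. Nr1i2 turned between clutches to -0.10 in limma with either pseudocount. The causes were not tested. Calls between clutches numbered 22 to 25 under every alternative, with 9 higher and 14 lower on TPM in place of 13 and 12, as the share of higher calls among all genes was 29.4% on log2(TPM + 1) and 48.4% in edgeR. The 23 genes at 1 TPM or more in whole embryos were 17 when both replicates had to reach it, 18 in replicate 2 and 26 in replicate 1, 32 at 0.5 TPM and 16 at 2 TPM. The values of nr2f5 in vegetal masses and of esr2 in replicate 2 rest on fewer than 10 counts per library. Other genes that passed also had libraries under 10 counts. The lowest were 1 for pgr, thrb, nr4a3 and nr5a1, 3 for nr1h5, 4 for hnf4a and vdr, 6 for ppard and rora and 9 for nr1d2.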
